A study of Mus musculus with 24 samples.

Results

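Transplanted mouse mammary tumours that had received E7386 at 50 mg/kg for 7 days were compared with tumours that had received 25 mg/kg for the same 7 days. E7386 is an oral small molecule described as acting on the contact between β-catenin and its coactivator CBP. The comparison used 8 of the 24 RNA-seq libraries of the study, namely 4 at 50 mg/kg and 4 at 25 mg/kg on day 8, taken by the dose and day in their labels. The tumours arose spontaneously in the transgenic MMTV-Wnt1 strain B6SJL-Tg(Wnt1)1Hev/J and were transplanted as pieces into C57BL/6J mice. All groups therefore shared the Wnt1 transgene in the tumour cells, under the mouse mammary tumour virus promoter, which forces Wnt1 expression in mammary epithelium. Mice were allocated at random, dosing began at about 200 mm3 (day 1), and E7386 was given orally 2 times a day, so a mouse in either arm received 2 doses of 50 or of 25 mg/kg per day. The remaining libraries were 4 from vehicle-treated tumours on day 8 and 12 from the same 3 arms on day 4, after 3 days of dosing. Neither the age of the mice nor whether each library came from a separate mouse is given in the sources used here, so p-values measure the spread between these libraries, which may in part be technical.

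Wnt1 is a secreted ligand that binds Frizzled and LRP receptors, stops the destruction of β-catenin and lets it activate genes with TCF and LEF factors, among them the feedback inhibitors Axin2 and Nkd1. MMTV-Wnt1 tumours are known to mix basal and luminal epithelial cells. A growing tumour also draws in vessels, fibroblasts and immune cells, and cells far from a vessel switch on genes through the hypoxia-inducible factors (HIF), which raise glucose use and the vessel growth factor VEGF-A.

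Gene positions are those of GENCODE M21 on mouse build GRCm38, matched by gene identifier. Values were the authors' TPM, a transcript abundance corrected for gene length and scaled to the same total in every library. All differences below are 50 minus 25 mg/kg on the log2(TPM + 1) scale, which understates the change of genes at low TPM, and a gene was called when its Benjamini-Hochberg adjusted p from limma was under 0.05. TPM keeps no sequencing depth, so the depth of each library is unknown. Tested genes were those at 1 TPM or more in at least 4 of the 24 libraries, 15736 of 47729. Genes at 1 TPM or more numbered 14543 to 14723 in the 50 mg/kg libraries and 14621 to 14845 in the 25 mg/kg libraries. The share of TPM from mitochondrially encoded genes was 8.29 to 11.2% at 50 mg/kg and 9.9 to 10.3% at 25 mg/kg. The tumour epithelium was checked by its markers: Epcam lay at 367 to 512 TPM at 50 mg/kg and 412 to 514 TPM at 25 mg/kg, and Krt8, Krt18, Krt5, Krt14, Krt17 and Cdh1 were above 180 TPM in all 8 libraries. The fat cell marker Adipoq was listed at 0 in 2 libraries at 50 mg/kg and 1 at 25 mg/kg. Skeletal muscle RNA varied within both doses, with Ckm at 0.3 to 39.1 TPM at 50 mg/kg and 0.06 to 99.8 TPM at 25 mg/kg. In bulk tumour pieces, fewer cells of a type cannot be told apart from less RNA per cell.

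After 7 days 170 genes differed between the doses. Of the 15736 genes, 134 fell (0.852%) and 36 rose (0.229%) at 50 mg/kg relative to 25 mg/kg, together 1.08%, and 21.2% of the calls were higher. That split moved with the scaling and the libraries fitted. TMM scaling factors gave 100 higher and 107 lower (48.3% higher), and quantile normalization gave 88 higher and 142 lower (38.3% higher). A fit of the groups compared alone, 50 and 25 mg/kg on day 8, gave 45 higher and 32 lower (58.4% higher). Of these 77 calls, 34 were shared with the fit reported. The genes that fell held 8 genes of the HIF response, 7 of glycolysis and several of small vessels, and those that rose held the basal keratins Krt14 and Krt5, the epidermal genes Calml3 and Aqp3 and the antioxidant enzymes Gsr and Gsta4. Most changes were moderate: 31 of the 170 reached 2-fold, and called differences ran from 0.29 to 1.995 among the genes that rose and from -2.86 to -0.20 among those that fell, leaving out the small nucleolar RNA gene Gm23245, which was listed at 0 TPM in all 4 libraries at 50 mg/kg and at 4.84 to 21.1 TPM at 25 mg/kg. The median over all genes was -0.03, and 56.9% of genes had a value below 0. At an unadjusted p under 0.05 there were 2632 of the 15736 genes, counting both directions.

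**Figure D1:**
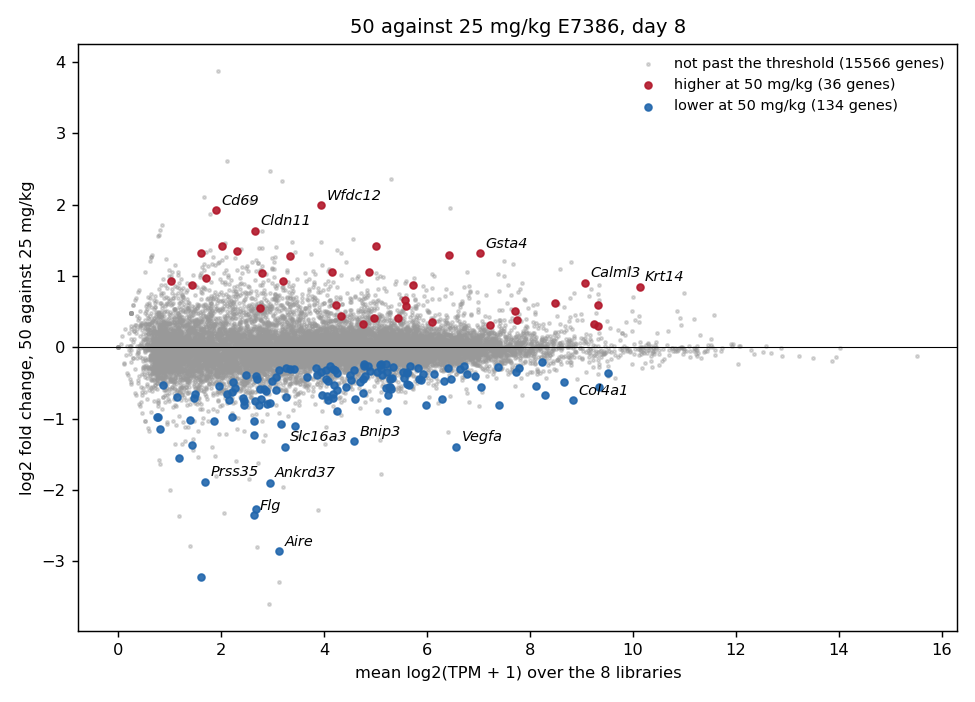
Log2 fold change of 50 against 25 mg/kg on day 8 (vertical) against the mean log2(TPM + 1) over the 8 libraries (horizontal) for all 15736 genes tested, with the 36 genes that rose in red, the 134 that fell in blue and the rest in grey. Vegfa, Bnip3, Slc16a3 and Ankrd37 lie more than 1 unit below 0, and Wfdc12 lies highest among the genes that rose.

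The 4 libraries of a dose did not overlap with those of the other in 33 of the 36 genes that rose and in 130 of the 134 that fell. Over all genes tested, 3.82% were higher in every 50 mg/kg library than in any 25 mg/kg library and 6.04% were lower in every one. The called genes were picked by the difference between these same libraries, so their separation is no independent evidence. How many genes passed depended on single libraries. With 50 mg/kg replicate 3 left out 56 genes passed, and with replicate 1 of that dose left out 293 did. Among the 25 mg/kg libraries, omitting replicate 2 left 73 genes, omitting replicate 3 left 38 and omitting replicate 4 left 113.

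Genes induced by hypoxia were lower at 50 mg/kg. Of the 29 members of the hypoxia list, all of them tested, 8 fell and none rose, and the median difference was -0.50, against -0.03 over all genes. Among all genes tested 0.852% fell and 0.229% rose. Vegfa (ENSMUSG00000023951, chr17:46016993-46032369, minus strand), which encodes the growth factor that drives vessel sprouting, had 47.7, 55.7, 51.8 and 80.1 TPM in replicates 1 to 4 at 50 mg/kg, against 106, 206, 162 and 155 TPM at 25 mg/kg. All 50 mg/kg libraries lay below all 25 mg/kg libraries, and the lowest value at 25 mg/kg, in replicate 1, was still above the highest at 50 mg/kg, in replicate 4. Its difference was -1.39 ± 0.24 (SE; adjusted p = 0.00798). Ankrd37 (ENSMUSG00000050914, chr8:45996902-46005707, minus strand), a HIF target encoding an ankyrin repeat protein, had 2.76, 5.08, 2.63 and 2.04 TPM in replicates 1 to 4 at 50 mg/kg, against 13.3, 18., 8.88 and 17.1 TPM at 25 mg/kg. The groups did not overlap, and the difference was -1.90 ± 0.26 (SE; adjusted p = 0.00178). Bnip3 (ENSMUSG00000078566, chr7:138890836-138909519, minus strand), which encodes a mitochondrial protein that promotes the removal of mitochondria, had 9.88, 15.1, 14.2 and 19.01 TPM in replicates 1 to 4 at 50 mg/kg, against 25.4, 48.5, 37.02 and 40.5 TPM at 25 mg/kg. Each 50 mg/kg value was below each 25 mg/kg value, with a difference of -1.32 ± 0.24 (SE; adjusted p = 0.0103). Slc16a3 (ENSMUSG00000025161, chr11:120948480-120960868, plus strand), the lactate exporter MCT4, had 3.15, 4.4, 4.88 and 7.68 TPM in replicates 1 to 4 at 50 mg/kg, against 11.4, 12.8, 15.97 and 17.7 TPM at 25 mg/kg, again without overlap, and its difference was -1.40 ± 0.24 (SE; adjusted p = 0.00938).

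The other hypoxia genes that fell were smaller in size or lower in level. Cox4i2, a hypoxic isoform of a cytochrome oxidase subunit, averaged 3.11 ± 0.746 TPM at 50 mg/kg and 8.97 ± 3.18 TPM at 25 mg/kg (SD, n = 4 each), a difference of -1.24 (adjusted p = 0.0199). The mitochondrial adenylate kinase gene Ak4 averaged 5.26 ± 1.35 TPM at 50 mg/kg and 12.1 ± 1.997 TPM at 25 mg/kg, a difference of -1.08 (adjusted p = 0.0113). The call of Cox4i2 was lost on omitting 50 mg/kg replicate 3 or 4 or 25 mg/kg replicate 2 or 3, and that of Ak4 on omitting 50 mg/kg replicate 3. P4ha1, which encodes a collagen prolyl hydroxylase subunit, differed by -0.64 (adjusted p = 0.00849), and Fam162a, a HIF target linked to cell death, by -0.56 (adjusted p = 0.03). Of the members that did not pass, Car9, the carbonic anhydrase often used to mark hypoxic tumour, had a value of -0.93 (adjusted p = 0.114) and Egln3, an oxygen-sensing prolyl hydroxylase, of -0.68 (adjusted p = 0.0986). Pfkfb4, which makes a regulator of glycolysis, was the member with the highest value, 0.67 (adjusted p = 0.184), and did not pass. In 13 of the 29 members every 50 mg/kg library lay below every 25 mg/kg library, and in 1, Pfkfb4, every one lay above. The shares of all genes tested were 6.04% below and 3.82% above.

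The count of 8 was 5 to 9 when single libraries were left out, with the 5 on omitting 50 mg/kg replicate 3. The calls of Vegfa, Ankrd37, Bnip3 and Slc16a3 passed in each of the 8 fits without a single library. Fitting the groups compared alone ended the calls of Bnip3, Cox4i2 and Ak4, while those of Vegfa, Ankrd37 and Slc16a3 held. With the mean level of the macrophage list as a covariate, 1 member passed, Ankrd37; the macrophage list was itself higher in all 50 mg/kg libraries, as given below. Ankrd37 overlaps Ufsp2 on the opposite strand, so reads of the pair could be mixed if strand was not used in counting.

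The promoters of the genes that fell were searched for the core motif to which HIF binds, ACGTG or GCGTG, on both strands, because hypoxia genes are known to be switched on through it. RefSeq promoter windows of build GRCm38.p6 were used, restricted to the 250 bases before the RefSeq start, and 7 of the 8 genes had one. The motif was present in 6 of the 7 and was not found in the window of Vegfa, beside 38.6% of all 32851 windows. Of all 21 list members with a window, 17 held it. The windows of the 3 genes with the largest falls among those holding the motif are shown so that these matches can be read in place, Ankrd37 at chr8:45999851-46000100 (minus strand), Slc16a3 at chr11:120948817-120949066 (plus strand) and Bnip3 at chr7:138909507-138909756 (minus strand). They are written 5′ to 3′ on the strand of the gene, ending at the base before the RefSeq start, which in these 3 genes lies inside the GENCODE gene, whose extent begins farther upstream, with the motif on either strand in capitals.
Ankrd37: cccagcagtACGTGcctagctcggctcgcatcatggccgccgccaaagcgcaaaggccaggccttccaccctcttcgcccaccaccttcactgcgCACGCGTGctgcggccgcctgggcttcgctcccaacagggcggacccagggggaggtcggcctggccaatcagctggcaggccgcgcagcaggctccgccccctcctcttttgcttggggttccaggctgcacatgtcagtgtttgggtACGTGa
Slc16a3: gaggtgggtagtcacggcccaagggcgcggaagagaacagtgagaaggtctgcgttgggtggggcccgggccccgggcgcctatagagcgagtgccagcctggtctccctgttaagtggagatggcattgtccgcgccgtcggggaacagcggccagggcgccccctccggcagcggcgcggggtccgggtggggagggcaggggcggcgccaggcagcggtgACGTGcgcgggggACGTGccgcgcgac
Bnip3: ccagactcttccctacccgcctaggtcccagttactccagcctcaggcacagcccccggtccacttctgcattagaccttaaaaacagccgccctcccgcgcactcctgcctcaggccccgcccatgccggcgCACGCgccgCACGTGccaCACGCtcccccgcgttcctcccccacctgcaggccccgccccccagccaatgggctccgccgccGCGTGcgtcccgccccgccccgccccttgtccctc
The match nearest to the start began 6 bases before it in Ankrd37, 14 bases in Slc16a3 and 35 bases in Bnip3. Neighbouring matches can share bases, since CACGTG reads as the motif on both strands. A match describes the letters of the window and not a bound site.

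**Figure D2:**
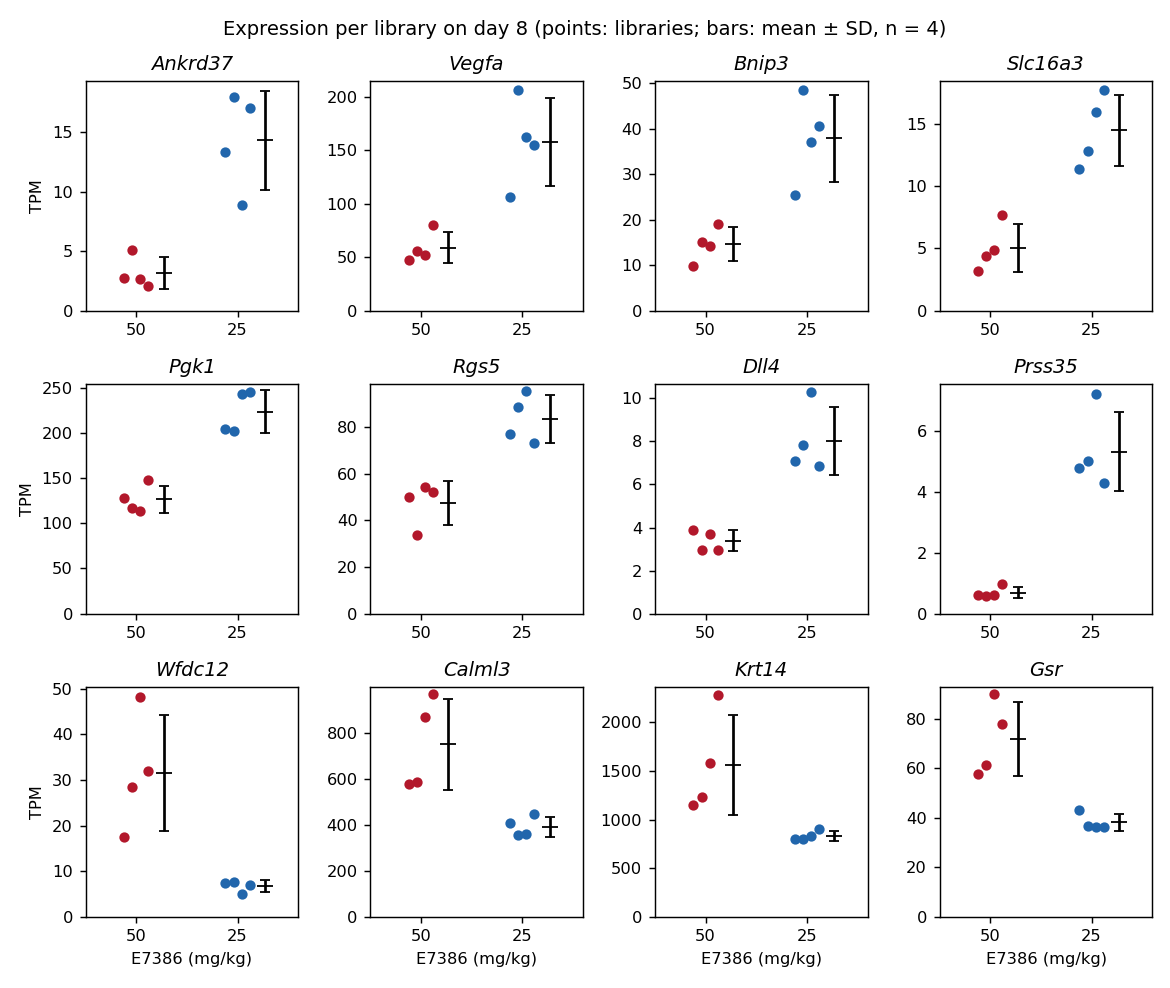
TPM of 12 genes in each of the 4 libraries at 50 mg/kg (red, left) and the 4 at 25 mg/kg (blue, right) on day 8, with the mean and SD as black bars and every axis starting at 0. The 50 mg/kg libraries lie below all 25 mg/kg libraries for Ankrd37, Vegfa, Bnip3, Slc16a3, Pgk1, Rgs5, Dll4 and Prss35, and above all of them for Wfdc12, Calml3, Krt14 and Gsr.

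Glycolytic enzymes, which convert glucose to pyruvate and lactate, were also lower at 50 mg/kg. Of 19 members tested, 7 fell, none rose, and the median difference was -0.41. Falls made up 0.852% of all genes tested. Pgk1 (ENSMUSG00000062070, chrX:106187100-106203699, plus strand), phosphoglycerate kinase, had 128, 117, 114 and 147 TPM in replicates 1 to 4 at 50 mg/kg, against 204, 202, 243 and 245 TPM at 25 mg/kg. The groups did not overlap, with a difference of -0.81 ± 0.16 (SE; adjusted p = 0.0139). Pfkl, a phosphofructokinase subunit, averaged 61.01 ± 11.8 TPM at 50 mg/kg and 101 ± 10.3 TPM at 25 mg/kg (SD, n = 4 each) and differed by -0.73 (adjusted p = 0.0153). The abundant aldolase gene Aldoa averaged 536 ± 81.01 TPM at 50 mg/kg and 784 ± 92.5 TPM at 25 mg/kg, with 50 mg/kg replicate 4 just above 25 mg/kg replicate 1, and differed by -0.55 (adjusted p = 0.0344). Pfkp, Tpi1, Ldha and Gpi1 made up the 7, with differences of -0.55, -0.54, -0.48 and -0.36. The glucose transporter Slc2a1 narrowly missed the threshold at -0.74 (adjusted p = 0.0516), and both hexokinases Hk1 and Hk2 had values near 0, 0.02 and 0.01. In 11 of the 19 genes all 50 mg/kg libraries lay below all 25 mg/kg libraries, beside 6.04% of all genes tested.

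The glycolysis count rested on few libraries: 1 gene passed on omitting 50 mg/kg replicate 3, and among the 25 mg/kg libraries omitting replicate 3 left 1, omitting replicate 2 left 2 and omitting replicate 4 left 3. None passed with the macrophage level as a covariate. Pfkl, Pfkp and Aldoa lost their calls in the fit of the groups compared alone, where Pgk1 kept its call. The list median stayed between -0.50 and -0.23 in all alternatives run. Pgk1, Aldoa, Tpi1 and Ldha have processed pseudogenes, so their TPM depends on how shared reads were assigned, and Pfkp overlaps Pitrm1 on the other strand.

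Genes of sprouting vessels and of pericytes, the contractile cells that wrap capillaries, were lower at 50 mg/kg. Of 14 genes of tip cells, the leading cells of a vessel sprout, 4 fell and none rose (median -0.24). Among all genes tested 0.852% fell. Dll4 (ENSMUSG00000027314, chr2:119325784-119335962, plus strand), a Notch ligand made by tip cells, had 3.89, 2.98, 3.7 and 2.95 TPM in replicates 1 to 4 at 50 mg/kg, against 7.09, 7.84, 10.3 and 6.84 TPM at 25 mg/kg. The groups did not overlap, and the difference was -1.03 ± 0.22 (SE; adjusted p = 0.0216). Apln, the ligand of the apelin receptor, differed by -0.76 (adjusted p = 0.0437). The basement membrane protein gene Nid2 differed by -0.70 (adjusted p = 0.0439) and Ramp3, a receptor activity modifier, by -0.66 (adjusted p = 0.0498). Among 10 pericyte genes 2 fell and none rose (median -0.48). Rgs5 (ENSMUSG00000026678, chr1:169655501-169695813, plus strand), a G-protein regulator that marks pericytes, had 49.98, 33.8, 54.3 and 52.2 TPM in replicates 1 to 4 at 50 mg/kg, against 76.9, 88.7, 95.2 and 72.9 TPM at 25 mg/kg, without overlap and with a difference of -0.81 ± 0.15 (SE; adjusted p = 0.0103). The proteoglycan NG2 gene Cspg4 differed by -0.62 (adjusted p = 0.0199).

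None of the 21 endothelial genes passed, in either direction, although 18 of them had negative values and their median was -0.40. At an unadjusted p under 0.05, 7 were lower and none higher, beside 2632 of all 15736 genes in either direction. Cldn5, of the endothelial tight junction, differed by -0.78 (adjusted p = 0.177) and Cdh5, VE-cadherin, by -0.60 (adjusted p = 0.184). The mean log2 level of the endothelial list was 2.94 to 3.64 at 50 mg/kg and 3.43 to 3.84 at 25 mg/kg, so these groups overlapped, whereas that of the pericyte list, 3.89 to 4.30 at 50 mg/kg and 4.30 to 4.77 at 25 mg/kg, did not overlap but met at its edge. Of the Notch list of 15 genes only Dll4 was called, as a fall. The list median was -0.23, with 11 negative and 4 positive values. At an unadjusted limma p under 0.05, 5 Notch genes were lower and none higher. The mean log2 level of the Notch list, 4.26 to 4.52 at 50 mg/kg and 4.64 to 4.81 at 25 mg/kg, did not overlap. Of 20 fibroblast and collagen genes 2 fell, Col4a1 and Col4a2, the chains of the type IV collagen of basement membranes. Col4a1 had 460.4, 222, 434 and 344 TPM in replicates 1 to 4 at 50 mg/kg, against 601, 559, 636 and 555 TPM at 25 mg/kg, and differed by -0.74 (adjusted p = 0.015). Col4a2 differed by -0.67 (adjusted p = 0.0104). Both calls were lost on omitting 25 mg/kg replicate 3. The interstitial collagen genes Col1a1 and Col3a1 had values of -0.33 and -0.05 and did not pass. None of the 4 tip cell genes passed when 50 mg/kg replicate 2, 3 or 4 or 25 mg/kg replicate 2 or 3 was left out, and no pericyte gene passed when 25 mg/kg replicate 3 was. With the macrophage level as a covariate 5 endothelial genes fell and no tip cell gene did. Fitting the groups compared alone ended the calls of Apln, Nid2, Ramp3, Rgs5, Col4a1 and Col4a2, while those of Dll4 and Cspg4 held. Dll4, Nid2, Col4a1 and Col4a2 overlap genes on the opposite strand, with Col4a1 and Col4a2 overlapping each other.

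**Figure D3:**
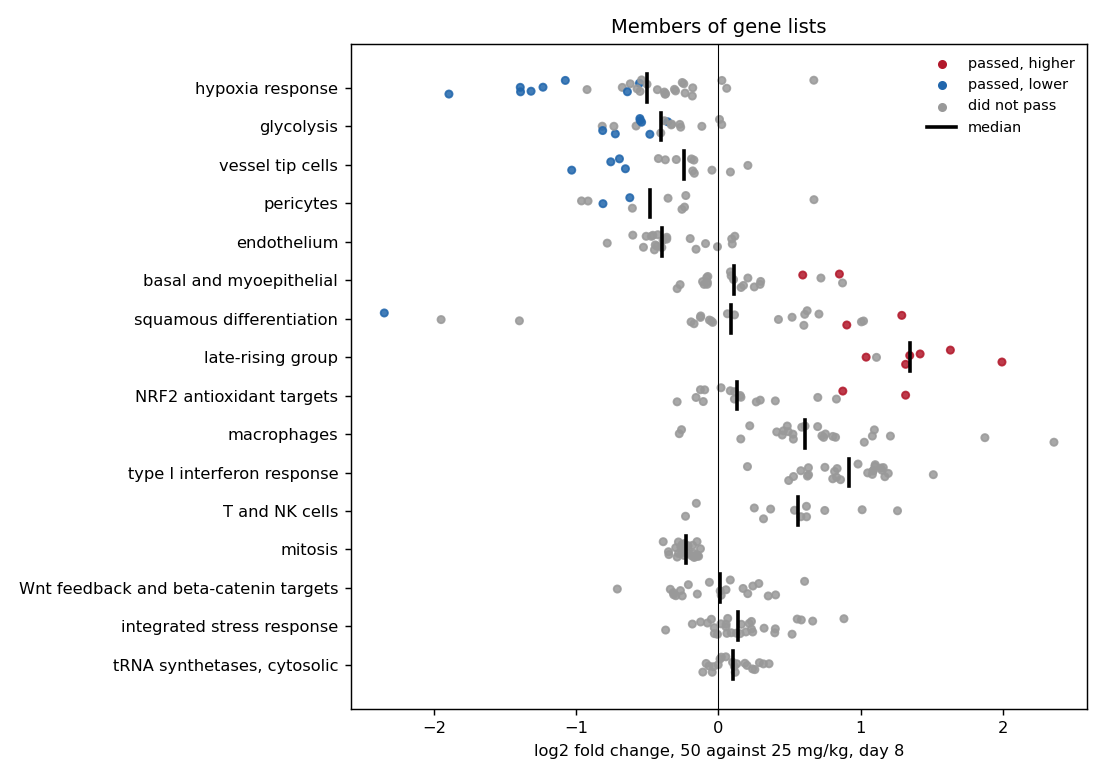
Log2 fold change of 50 against 25 mg/kg on day 8 (horizontal) for the tested members of 16 gene lists (rows), with members that rose in red, members that fell in blue, the rest in grey and the list median as a black bar. The medians of hypoxia response, glycolysis and pericytes lie at -0.50, -0.41 and -0.48, that of the late-rising group at 1.35, and all 26 mitosis genes lie below 0 without 1 passing.

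Aire, Flg and Prss35 were among the genes with the deepest falls. Aire (ENSMUSG00000000731, chr10:78030022-78043610, minus strand), a regulator known from the thymus, had 1.37, 3.17, 0.85 and 5.08 TPM in replicates 1 to 4 at 50 mg/kg, against 11.1, 33.9, 22.6 and 29.6 TPM at 25 mg/kg. The groups did not overlap but spread widely, and the difference was -2.86 ± 0.57 (SE; adjusted p = 0.0153); the call was lost on omitting 50 mg/kg replicate 3 (adjusted p = 0.063) or 25 mg/kg replicate 2 or 3 (adjusted p = 0.0617 and 0.0531). Prss35 (ENSMUSG00000033491, chr9:86743649-86758443, plus strand), which encodes a serine protease-like secreted protein, had 0.61, 0.57, 0.62 and 0.96 TPM in replicates 1 to 4 at 50 mg/kg, against 4.78, 4.99, 7.19 and 4.27 TPM at 25 mg/kg. It was below 1 TPM in all 50 mg/kg libraries and above 4 TPM in all 25 mg/kg libraries, and the difference was -1.89 ± 0.21 (SE; adjusted p = 8.86e-05), past the threshold in all 22 alternatives. Flg, encoding filaggrin of the outer epidermis, had 1.18, 0.6, 1.12 and 6.73 TPM in replicates 1 to 4 at 50 mg/kg, against 8.35, 6.85, 16.4 and 29.3 TPM at 25 mg/kg. Replicate 4 was the highest of each dose, its 50 mg/kg value lay just under the lowest 25 mg/kg value, and the difference was -2.35 ± 0.46 (SE; adjusted p = 0.015). Its call was lost on omitting 50 mg/kg replicate 3 or 25 mg/kg replicate 3 or 4. The symbol Flg stands for several gene identifiers, so its level is uncertain. The G-protein regulators Rgs16 and Rgs4 also fell, by 1.10 and 0.97 on the log2 scale (adjusted p = 0.0153 and 0.0191). The call of Rgs16 was lost on omitting replicate 3 of either dose, and that of Rgs4 on omitting 50 mg/kg replicate 2 or 25 mg/kg replicate 2, 3 or 4. Flg, Rgs16 and Rgs4 also lost their calls in the fit of the groups compared alone, where Aire and Prss35 kept theirs.

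Basal keratins and a few epidermal genes rose at 50 mg/kg. The basal and myoepithelial list of 21 genes held 2 that rose and no gene that fell (median 0.11). Among all genes tested 0.229% rose. Krt14 (ENSMUSG00000045545, chr11:100203162-100207548, minus strand), a keratin of basal cells, had 1146, 1234, 1577 and 2286 TPM in replicates 1 to 4 at 50 mg/kg, against 799, 797, 835 and 903 TPM at 25 mg/kg. Every 50 mg/kg library exceeded every 25 mg/kg library, with replicate 4 highest, and the difference was 0.85 ± 0.17 (SE; adjusted p = 0.016). Its partner keratin Krt5 had 679.8, 851, 744 and 864 TPM in replicates 1 to 4 at 50 mg/kg, against 492, 601, 468 and 518 TPM at 25 mg/kg, also without overlap, and differed by 0.59 ± 0.12 (SE; adjusted p = 0.0192). Krt17 and Krt6a had values of 0.72 (adjusted p = 0.089) and 0.87 (adjusted p = 0.187) and did not pass, and the basal transcription factor gene Trp63 lay at 0.09 (adjusted p = 0.652). The contractile genes Acta2 and Myh11 had values of -0.29 and -0.27. The call of Krt14 was lost on omitting 50 mg/kg replicate 3 (adjusted p = 0.0607) or 25 mg/kg replicate 2 or 3 (adjusted p = 0.0604 and 0.0559). That of Krt5 was lost on omitting 50 mg/kg replicate 3 or 4 (adjusted p = 0.0557 and 0.0635) or 25 mg/kg replicate 1 or 3 (adjusted p = 0.0536 and 0.0851). In the fit of the groups compared alone neither passed. With the macrophage level as a covariate, a level that was itself higher in all 50 mg/kg libraries, Krt14 did not pass (adjusted p = 0.111) and Krt5 did.

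Of 22 squamous differentiation genes 2 rose and 1, Flg, fell (median 0.09). Among all genes tested 0.229% rose and 0.852% fell. Calml3 (ENSMUSG00000063130, chr13:3802896-3804316, minus strand), an epithelial calmodulin-like protein, had 576, 588, 869 and 966 TPM in replicates 1 to 4 at 50 mg/kg, against 409, 354, 359 and 445 TPM at 25 mg/kg. Replicates 3 and 4 at 50 mg/kg were highest, the groups did not overlap, and the difference was 0.90 ± 0.16 (SE; adjusted p = 0.00938). The call held on omitting any single library but was lost with the macrophage level as a covariate (adjusted p = 0.078), in the fit of the groups compared alone and with a 2-fold minimum. Aqp3, a water and glycerol channel of the epidermis, had 92.7, 86.6, 155 and 250.3 TPM in replicates 1 to 4 at 50 mg/kg, against 56.6, 52.7, 49.2 and 57.3 TPM at 25 mg/kg, and differed by 1.29 ± 0.29 (SE; adjusted p = 0.0305). Its groups did not overlap, and its call was lost on omitting 50 mg/kg replicate 3 or 4 or any single 25 mg/kg library (adjusted p from 0.0558 to 0.0998), with the macrophage level as a covariate (adjusted p = 0.138) and in the fit of the groups compared alone. Involucrin, Ivl, had 5.78, 7.9, 10.3 and 16.3 TPM in replicates 1 to 4 at 50 mg/kg, against 6.62, 3.21, 2.49 and 5.22 TPM at 25 mg/kg, with overlapping groups, and its value of 1.02 (adjusted p = 0.131) did not pass. Sox15 (ENSMUSG00000041287, chr11:69655314-69656727, plus strand), a transcription factor of the Sox family, had 20.5, 27.4, 22.03 and 28.96 TPM in replicates 1 to 4 at 50 mg/kg, against 10.97, 14.1, 11.5 and 9.15 TPM at 25 mg/kg. The groups were apart, the difference was 1.05 ± 0.17 (SE; adjusted p = 0.00798), and it passed in all 22 alternatives; Sox15 overlaps Mpdu1 on the other strand.

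A group of 7 genes that had been picked from these data for rising late at 50 mg/kg was higher here too, and its count is therefore no independent evidence: 6 of 7 rose (median 1.35). Wfdc12 (ENSMUSG00000042845, chr2:164189231-164190608, minus strand), which encodes a secreted protease inhibitor domain protein, had 17.4, 28.5, 48.2 and 31.9 TPM in replicates 1 to 4 at 50 mg/kg, against 7.5, 7.74, 4.97 and 6.88 TPM at 25 mg/kg. The lowest 50 mg/kg value, in replicate 1, was above the highest 25 mg/kg value, and the difference was 1.995 ± 0.32 (SE; adjusted p = 0.00657), which passed in all 22 alternatives. Cldn11, a tight junction claudin, had 6.92, 12.2, 11.02 and 11.3 TPM in replicates 1 to 4 at 50 mg/kg, against 3.31, 3.34, 1.51 and 2.57 TPM at 25 mg/kg, and differed by 1.63 ± 0.33 (SE; adjusted p = 0.0153). Dapl1, a protein linked to epithelial differentiation, averaged 54.2 ± 19.1 TPM at 50 mg/kg and 18.99 ± 3.396 TPM at 25 mg/kg and differed by 1.42 (adjusted p = 0.0133). Aox3, an aldehyde oxidase, and Defb1, an antimicrobial defensin, differed by 1.35 (adjusted p = 0.0276) and 1.04 (adjusted p = 0.0395). With 50 mg/kg replicate 3 left out 1 of the 7 passed and with replicate 4 left out 3 did; for 25 mg/kg replicates 1, 3 and 4 these numbers were 4, 2 and 3. With the macrophage level as a covariate 2 of the 7 passed. Dapl1 and Aox3 lost their calls in the fit of the groups compared alone, where Wfdc12, Cldn11 and Defb1 kept theirs.

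Of 18 targets of NRF2, the factor that switches on antioxidant enzymes, 2 rose and none fell (median 0.13). Among all genes tested 0.229% rose. Gsr (ENSMUSG00000031584, chr8:33652523-33698163, plus strand), glutathione reductase, had 57.7, 61.5, 90.1 and 77.9 TPM in replicates 1 to 4 at 50 mg/kg, against 43.3, 36.7, 36.5 and 36.3 TPM at 25 mg/kg. The 25 mg/kg libraries were tightly grouped apart from replicate 1, which was highest, and all lay below 50 mg/kg; the difference was 0.88 ± 0.15 (SE; adjusted p = 0.00798). Gsta4, a glutathione transferase for lipid peroxidation products, had 119, 215, 237 and 289 TPM in replicates 1 to 4 at 50 mg/kg, against 74.4, 120.0, 65.3 and 75.3 TPM at 25 mg/kg. The lowest 50 mg/kg value, in replicate 1, lay just under the highest 25 mg/kg value, in replicate 2, and the difference was 1.32 ± 0.27 (SE; adjusted p = 0.0175). Other members known as main NRF2 targets did not pass: Nqo1 had a value of -0.13 (adjusted p = 0.463), Txnrd1 of -0.16 (adjusted p = 0.415), Srxn1 of 0.70 (adjusted p = 0.0582) and Hmox1 of 0.83 (adjusted p = 0.368). Gsta4 is also in the late-rising group. Cd69, an activation marker of lymphocytes, had 1.85, 5.32, 10.6 and 12.3 TPM in replicates 1 to 4 at 50 mg/kg, against 1.26, 0.82, 0.8 and 0.81 TPM at 25 mg/kg; it rose by 1.93 ± 0.39 (SE; adjusted p = 0.017), with the 50 mg/kg values spread over a wide range and replicate 1 close to the 25 mg/kg libraries. The calls of Gsta4 and Cd69 were both lost on omitting 50 mg/kg replicate 3 or 4 or 25 mg/kg replicate 3, and in addition on omitting 25 mg/kg replicate 4 for Gsta4 and replicate 2 for Cd69. Neither passed with the macrophage level as a covariate, and nor did Gsr. Gsta4 and Cd69 also lost their calls in the fit of the groups compared alone, where Gsr kept its call. Cd72, a B cell coreceptor gene also found in myeloid cells, rose by 1.06 (adjusted p = 0.0403) and overlaps Tesk1 on the other strand; its call held in 1 of the 8 fits without a single library, that without 50 mg/kg replicate 2.

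The macrophage, neutrophil, T and NK cell, interferon and chemokine lists had positive medians at 50 mg/kg, but none of their members passed in the limma fit reported. That count of none depended on the fit. For the 25 macrophage genes the median was 0.61, 23 values were positive, 14 genes were higher in every 50 mg/kg library, and 15 were higher at an unadjusted p under 0.05. Over all 15736 genes, 3.82% were higher in every 50 mg/kg library, and 2632 had such a p in either direction. The mean log2 level of the list was 5.603 to 5.92 at 50 mg/kg and 4.91 to 5.25 at 25 mg/kg, without overlap, and its summed level was 5008 to 7093 TPM at 50 mg/kg and 3976 to 4725 TPM at 25 mg/kg. All 25 genes were above 0 in both groups, and the defining markers were Adgre1, at 10.03 to 16.6 TPM at 50 mg/kg and 8.08 to 9.61 TPM at 25 mg/kg, and Csf1r, at 24.5 to 41.2 TPM at 50 mg/kg and 21.6 to 26.7 TPM at 25 mg/kg. Gpnmb, a glycoprotein of lipid-laden macrophages, had 90.6, 148, 107 and 43.1 TPM in replicates 1 to 4 at 50 mg/kg, against 20.9, 13.2, 13.5 and 19.6 TPM at 25 mg/kg, without overlap; its difference of 2.36 ± 0.65 (SE; adjusted p = 0.0745) did not pass. Ctss, the lysosomal protease cathepsin S, had 282, 273, 301 and 245 TPM in replicates 1 to 4 at 50 mg/kg, against 146, 114, 113 and 104 TPM at 25 mg/kg, and its difference was 1.21 ± 0.32 (SE; adjusted p = 0.0621). When the fit used the groups compared alone, 6 macrophage genes were called higher, and with library weights, under which 2264 of all genes were called, 15 were. Library weights also called 7 genes of the type I interferon list, 11 of the interferon-γ list, 6 of the T and NK cell list and 7 chemokine genes higher. With the list's level as a covariate, 25 of all genes passed in place of 170, 15 of them shared, and 7 rose and 18 fell.

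Type I interferon genes were highest in 1 library. All 26 had positive values, with a median of 0.92, and none passed. At an unadjusted p under 0.05, 11 were higher, beside 2632 of all 15736 genes in either direction. The mean log2 level of the list was 5.01 in 50 mg/kg replicate 4, against 2.14 to 2.95 in replicates 1 to 3 at 50 mg/kg and 2.02 to 2.45 at 25 mg/kg. Oas3, an interferon-induced sensor of double-stranded RNA, had 1.03, 0.56, 1.69 and 11.6 TPM in replicates 1 to 4 at 50 mg/kg, against 0.71, 0.39, 0.41 and 0.29 TPM at 25 mg/kg, with replicates 1, 3 and 4 above all 25 mg/kg libraries and replicate 4 farthest above. Ccl5, a chemokine that attracts T cells, had 14.6, 4.19, 15.8 and 78.02 TPM in replicates 1 to 4 at 50 mg/kg, against 2.86, 3.71, 2.71 and 0.67 TPM at 25 mg/kg, and its value of 2.47 (adjusted p = 0.0711) did not pass. The medians of the interferon-γ, T and NK cell, neutrophil and chemokine lists were 0.59, 0.56, 0.69 and 0.63, with no member called. The T cell marker Cd3e lay at 0.64 to 1.04 TPM at 50 mg/kg and 0.14 to 0.32 TPM at 25 mg/kg. Over the 22 alternatives the median of the type I interferon list ran from 0.29 to 1.26. What part these immune levels have in the falls and rises above was not tested. The covariate fit cannot tell the macrophage level apart from the dose, because that level did not overlap between the doses.

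Wnt target genes did not pass between the doses in the limma fit reported. Axin2, the feedback inhibitor most often read as β-catenin activity, had 31.5, 30.4, 30.9 and 45.4 TPM in replicates 1 to 4 at 50 mg/kg, against 45.6, 37.3, 47.2 and 39.2 TPM at 25 mg/kg. Replicate 4 at 50 mg/kg lay among the 25 mg/kg values, and the difference was -0.30 ± 0.16 (SE; adjusted p = 0.336), with a 95% interval of -0.63 to 0.03. Nkd1, another feedback inhibitor, had 8.18, 6.71, 6.35 and 6.56 TPM in replicates 1 to 4 at 50 mg/kg, against 9.16, 8.52, 9.96 and 8.5 TPM at 25 mg/kg, without overlap, a difference of -0.34 ± 0.09 (SE; adjusted p = 0.0582) and an interval of -0.52 to -0.16. Lef1, a partner of β-catenin at DNA, was at low level, with 0.54, 1.41, 0.58 and 0.72 TPM in replicates 1 to 4 at 50 mg/kg, against 0.26, 0.5, 0.51 and 0.34 TPM at 25 mg/kg, without overlap, a difference of 0.35 ± 0.25 (SE; adjusted p = 0.498) and an interval of -0.17 to 0.87. Wnt1, the gene the transgene carries, had 66.2, 166, 57.6 and 84.2 TPM in replicates 1 to 4 at 50 mg/kg, against 108, 257, 127 and 129.8 TPM at 25 mg/kg; replicate 2 was the highest of each dose, the groups overlapped, and the difference of -0.77 ± 0.29 (SE; adjusted p = 0.19) had an interval of -1.38 to -0.16. Over 21 Wnt feedback and β-catenin target genes tested, none passed in either direction, and the median was 0.01. Of these, 1 was higher and 6 lower at an unadjusted p under 0.05, beside 2632 of all 15736 genes in either direction. With library weights, which called 1158 of all 15736 genes lower and 1106 higher, 6 of the 21 were called lower. Axin2 (adjusted p = 0.0322 from limma) and Nkd1 (adjusted p = 0.00204 from limma) were among these 6. Nkd1 was also called lower with the erythroid level as a covariate and on omitting 50 mg/kg replicate 1.

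All 26 mitosis genes had negative values (median -0.23), and none passed. Of these, 1 was lower at an unadjusted p under 0.05, beside 2632 of all 15736 genes in either direction. Mki67, a marker of cycling cells, had 116, 101, 79.1 and 75.4 TPM in replicates 1 to 4 at 50 mg/kg, against 122, 114, 114 and 118 TPM at 25 mg/kg. Replicates 3 and 4 at 50 mg/kg were lowest and replicate 1 lay within the 25 mg/kg range, with a difference of -0.35 ± 0.18 (SE; adjusted p = 0.314) and an interval of -0.72 to 0.01. In all, 38 of the 48 lists had no member past the threshold, among them DNA replication, ribosomal proteins, the respiratory chain, luminal genes, milk proteins, p53 targets and cholesterol synthesis. Their 683 tested genes had list medians from -0.57, in the erythroid list, to 0.92, in the type I interferon list.

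The same pair of doses was set side by side on day 4, after 3 days of dosing, in 8 other libraries. On day 4, 339 genes differed (2.15%), 181 higher (1.15%) and 158 lower (1%) at 50 mg/kg. Of the 134 genes that fell on day 8, 31 had also fallen on day 4, which is 23.1% of the day 8 list and 19.6% of the day 4 list. Of the 36 that rose on day 8, 1 had risen on day 4, 2.78% and 0.552% of the lists. No gene was called in opposite directions. The median day 4 difference was -0.20 over the 134 genes, of which 110 had the same sign, and 0.13 over the 36, of which 26 had the same sign; over all genes 61% did. Ankrd37, Prss35, Slc16a3, Bnip3, Cox4i2, P4ha1, Fam162a, Pgk1, Pfkl, Aldoa, Tpi1, Ldha and Gpi1 fell on both days: the day 4 difference was -2.04 for Ankrd37 (adjusted p = 6.33e-05) and -1.75 for Prss35 (adjusted p = 2.29e-05). Vegfa had a day 4 value of -0.56 (adjusted p = 0.285), and the difference between its 2 days did not pass (adjusted p = 0.385).

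The change of the dose difference between day 4 and day 8 was tested directly, as the day 8 difference minus the day 4 difference, and 59 genes passed (0.375%), 13 higher (0.0826%) and 46 lower (0.292%). The integrated stress response, which raises amino acid synthesis genes through ATF4 when the initiation factor eIF2 is phosphorylated, gave 9 of these 46 genes, and the tRNA synthetases, which load amino acids onto tRNA, gave another 10. Of the 30 stress response genes, 23 were higher at 50 than at 25 mg/kg on day 4 (median 1.08). On day 8 none of the 30 passed (median 0.14), and 4 were higher and 1 lower at an unadjusted p under 0.05. Over all 15736 genes, 2632 had such a p on day 8, in either direction. Of 20 cytosolic tRNA synthetase genes, 11 were higher on day 4 (median 0.75) and none on day 8 (median 0.11). Asns, asparagine synthetase, averaged 166 ± 22.4 TPM at 50 mg/kg and 35.5 ± 7.91 TPM at 25 mg/kg on day 4 (SD, n = 4 each). On day 8 Asns had 48.1, 38.9, 47.8 and 54.98 TPM in replicates 1 to 4 at 50 mg/kg, against 26.6, 24.8, 33.5 and 42.3 TPM at 25 mg/kg. Only 25 mg/kg replicate 4 lay within the 50 mg/kg range, the day 8 difference was 0.58 ± 0.16 (SE; adjusted p = 0.0711), and the change was -1.63 ± 0.23 (SE; adjusted p = 0.000706).

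Other genes of this kind were Aldh1l2 of mitochondrial folate metabolism, the glycine transporter gene Slc6a9 and the transcription factor gene Atf5. Aldh1l2 averaged 10.7 ± 1.01 TPM at 50 mg/kg and 8.99 ± 1.197 TPM at 25 mg/kg on day 8, and 37.5 ± 6.89 TPM at 50 mg/kg and 11.2 ± 1.6 TPM at 25 mg/kg on day 4; its change was -1.42 (adjusted p = 0.000207). For Slc6a9 the day 8 means were 22.6 ± 9.88 TPM at 50 mg/kg and 11.02 ± 1.5 TPM at 25 mg/kg, the day 8 difference was 0.88 (adjusted p = 0.0835), and the change was -1.65 (adjusted p = 0.0396). Aldh1l2, Slc6a9 and Atf5 overlap genes on the opposite strand.

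The 13 genes whose dose difference moved upward were mixed, and 2 of them, Calml3 and Ivl, were in the squamous differentiation list. Ifitm2, Capzb and Uqcrh, outside that list, had the smallest adjusted p of the 13. Capzb and Uqcrh had fallen on day 4, by values of -0.421 and -0.328. On day 8 their values were 0.065 and -0.004. Wfdc12 had a day 4 difference of -0.21 and a change of 2.21 ± 0.45 (SE; adjusted p = 0.0278). It was in the group picked from these data for rising late, so its change is no independent evidence. Calml3 had a day 4 difference of -0.34 and a change of 1.24 (adjusted p = 0.00911). Ivl differed by -1.47 on day 4 (adjusted p = 0.0198), when it fell, and by 1.02 on day 8, a change of 2.49 (adjusted p = 0.0163). No gene of the hypoxia or glycolysis lists passed the test of the change in either direction.

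**Figure D4:**
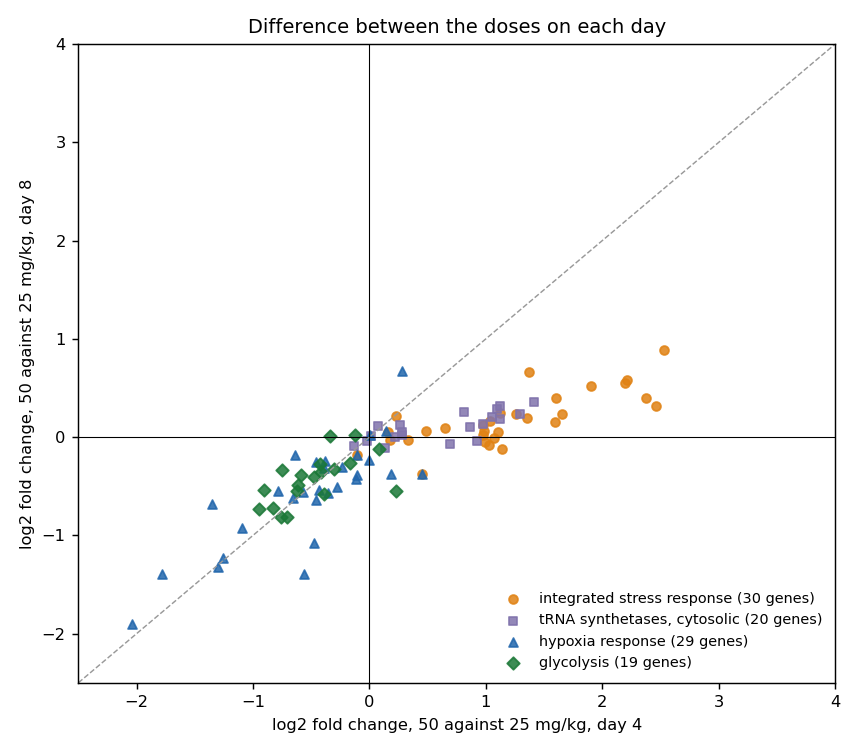
Log2 fold change of 50 against 25 mg/kg on day 8 (vertical) against that on day 4 (horizontal), in separate libraries, for the genes of 4 lists, with the line of equality dashed. Stress response and tRNA synthetase genes spread to the right at day 4 values with medians of 1.08 and 0.75 while their day 8 medians are 0.14 and 0.11, and hypoxia and glycolysis genes lie mainly below 0 on both days.

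Vehicle-treated tumours of day 8 give the baseline of both doses; since both comparisons with vehicle and the comparison of the doses share libraries, their values are given side by side only. Against vehicle, 438 genes differed at 50 mg/kg (2.78%), 120 higher (0.763%) and 318 lower (2.02%), and none at 25 mg/kg (0%) with limma, where 468 genes had an unadjusted p under 0.05 and at most 1 gene passed in any alternative. Vegfa averaged 202 ± 48.6 TPM in vehicle, 157 ± 41.2 TPM at 25 mg/kg and 58.8 ± 14.6 TPM at 50 mg/kg (SD, n = 4 each). For Ankrd37 the means were 22.4 ± 3.07 TPM in vehicle, 14.3 ± 4.15 TPM at 25 mg/kg and 3.13 ± 1.34 TPM at 50 mg/kg. The hypoxia list as a whole had a median of -0.75 at 50 mg/kg against vehicle, with 18 of 29 genes lower, and of -0.28 at 25 mg/kg against vehicle, with none past the threshold. The means of Prss35 were 5.74 ± 2.07 TPM in vehicle, 5.31 ± 1.29 TPM at 25 mg/kg and 0.69 ± 0.181 TPM at 50 mg/kg. For Krt14 they were 846 ± 139.5 TPM in vehicle, 834 ± 49.6 TPM at 25 mg/kg and 1561 ± 518 TPM at 50 mg/kg. In Prss35 and Krt14 the 25 mg/kg mean thus lay near that of vehicle, while in Vegfa and Ankrd37 it lay between those of 50 mg/kg and vehicle, although neither gene passed at 25 mg/kg (differences from vehicle of -0.37 and -0.65, adjusted p = 1 for both). Vehicle replicate 4 had a macrophage level of 5.93, above all 50 mg/kg libraries, and an interferon level of 3.57, above all of them but replicate 4. The count of genes that differed between 50 mg/kg and vehicle was 180 on omitting 50 mg/kg replicate 3 and 1175 on omitting vehicle replicate 4, and omitting vehicle replicate 1 or 2 left 207 or 214.

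**Figure D5:**
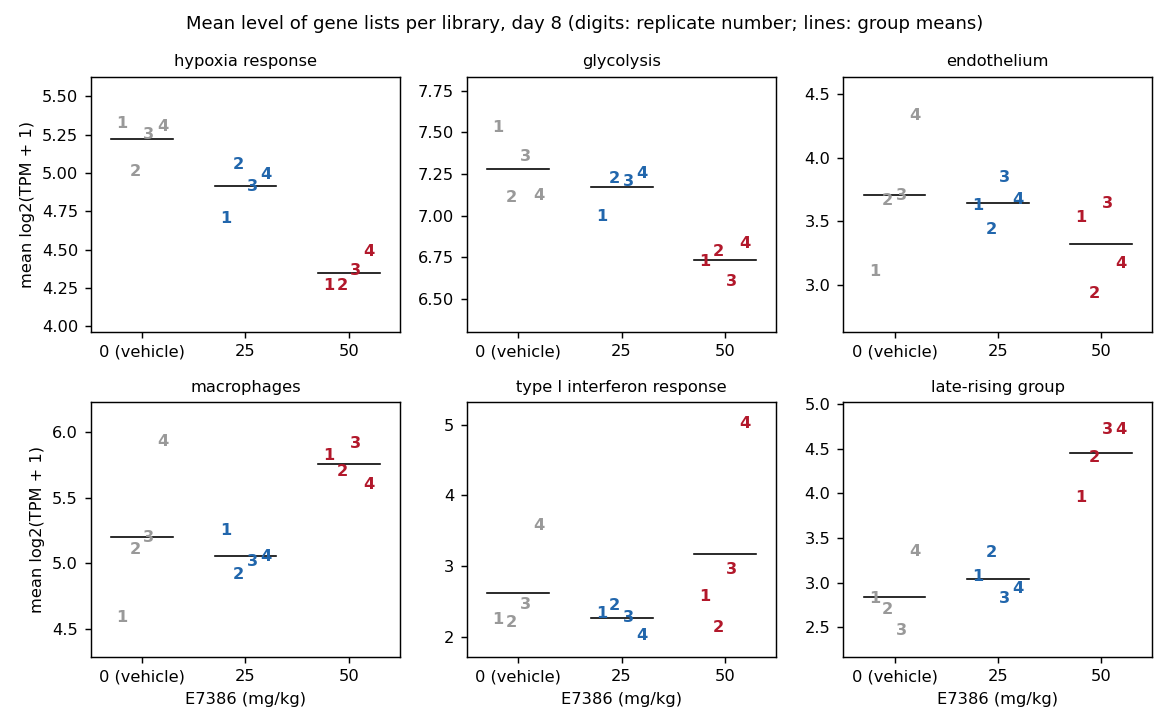
Mean log2(TPM + 1) of 6 gene lists (panels) in each day 8 library by dose, drawn as replicate numbers with the group mean as a line; vertical axes do not start at 0. The hypoxia and glycolysis levels of all 50 mg/kg libraries (4.27 to 4.49 and 6.61 to 6.83) lie below those at 25 mg/kg (4.70 to 5.05 and 7.00 to 7.25), the macrophage levels lie above, and in the interferon list replicate 4 at 50 mg/kg stands apart at 5.01.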

How the data were processed

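RNA-seq was made from 24 MMTV-Wnt1 tumour libraries, 4 in each of 6 groups. Per the labels' protocols, RNA was purified with an RNeasy kit and libraries were built from total RNA with a strand-specific SureSelect kit. The submitters' processing notes name bcl2fastq, Trimmomatic 0.36, STAR 2.5.0c and RSEM 1.2.31, with mouse build mm10 (GRCm38). The authors deposited TPM per gene. The annotation release and the strand setting of the counting are not stated in these sources, so genes that overlap another gene on the opposite strand are uncertain. TPM rescales every library to 1 total, so a few very abundant genes can shift all others, and no read depth can be had from it.

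Groups were taken from the agent, dose and day in the labels. Of 47729 gene identifiers, 47310 matched GENCODE M21. TPM was transformed to log2(TPM + 1), and the 15736 genes that reached 1 TPM in 4 or more libraries were fitted with limma 3.58.1 (R 4.3.3) on 6 group means, with an intensity trend and 18 residual degrees of freedom. P-values are two-sided and Benjamini-Hochberg adjusted over all genes tested, with a threshold of 0.05. The code was tested on simulated data. Alternatives changed the scaling, the low-value filter, the pseudocount, the libraries in the fit, library weights, variance shrinkage, a covariate, the threshold and the replicate number, and left out each library in turn. Gene lists are described by counts and medians without a set test.

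The genes named are up to 12 of the largest changes in each direction at a mean of 5 TPM or more, up to 4 called members of each list (2 with the smallest unadjusted p where none was called), the largest changes between the days, and list members given as context; some genes the rule or the marker check would name are not reported here. The comparison, the 48 lists and the rule were chosen with earlier results of these data known. Figures were drawn with matplotlib 3.10.9 in Python 3.11.15.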

Additional observations from a re-analysis of the deposited data

Results flagged for a closer look

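In 22 of 342 groups of 4 libraries, 1 library stood apart from the other 3 by Dixon's test, where chance gives about 1 in 20. At 50 mg/kg on day 8, replicate 4 was highest for Axin2 (45.4 TPM, the others 30.4 to 31.5), Pfkp (38.1 TPM, the others 28.1 to 29.4) and Prss35 (0.96 TPM, the others 0.57 to 0.62). At the same dose replicate 1 was highest for the Wnt receptor gene Fzd2 (14.2 TPM) and the desaturase gene Scd2 (158 TPM). The mean log2 level of the T and NK cell list was lowest in 50 mg/kg replicate 2, at 1.27, against 1.57 to 1.61 in the others.

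Replicate 1 at 25 mg/kg stood apart most often. It was lowest for Aldoa (648 TPM), Dapl1 (13.9 TPM), the Wnt feedback gene Rnf43 (37.6 TPM) and the level of the glycolysis list (7.00), and highest for Cd69 (1.26 TPM), Gsr (43.3 TPM), the T cell receptor gene Trbc2 (9.09 TPM) and the level of the NRF2 list (5.54). Leaving this library out moved the count of genes that differed between the doses to 137. At 25 mg/kg replicate 2 was highest for Cyb5r1 (31.1 TPM) and for the levels of the basal list (7.53) and the milk protein list (6.27), and lowest for Scd2 (123 TPM). At 25 mg/kg replicate 3 was lowest for Apln (4.48 TPM) and highest for the muscle gene Ryr1 (4.44 TPM), and replicate 4 was lowest for Egfr (15.5 TPM) and Tead1 (37.3 TPM).

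The difference between the doses itself differed between the days in 13 named genes by limma's test of the change, all adjusted over all genes. The value is the day 8 difference minus the day 4 difference. It was negative in 8 genes, namely Aars (-0.80, adjusted p = 0.0476), Aldh18a1 (-1.09, adjusted p = 0.00254), Aldh1l2 (-1.42, adjusted p = 0.000207), Asns (-1.63, adjusted p = 0.000706), Atf5 (-1.64, adjusted p = 0.00135), Cyb5r1 (-1.14, adjusted p = 0.000712), Nars (-1.05, adjusted p = 0.000229) and Slc6a9 (-1.65, adjusted p = 0.0396). In all 8 the day 4 difference was positive and larger than that of day 8. It was positive in Calml3 (1.24), Fgfbp1 (1.76, adjusted p = 0.0215), Ivl (2.49), Prr13 (0.57, adjusted p = 0.0413) and Wfdc12 (2.21), which had negative differences on day 4. Wfdc12 was in the group picked from these data for rising late.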

How the results depend on the processing

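Genes that differed between the doses on day 8 numbered 133 to 230 under TMM scaling, quantile normalization, other filters and pseudocounts, robust variances, and muscle or erythroid level as a covariate, beside 170 in the fit reported; the higher genes numbered 100 with TMM and 88 with quantile normalization. Fitting only the groups compared gave 77 (45 higher, 32 lower), and library weights gave 2264 (1106 higher, 1158 lower). A 2-fold minimum gave 31 (13 higher, 18 lower) and the macrophage covariate 25 (7 higher, 18 lower). The cause was not tested, except that the 2-fold minimum removes smaller changes and the fit of the groups compared has fewer libraries. Leaving out 1 library gave 38 to 293 (8 to 88 higher, 30 to 205 lower).

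For the change between days, only the groups compared gave 32, library weights 335, a 2-fold minimum 22 and 1 library less 33 to 76. For day 4 these gave 219, 1263, 58 and 148 to 356. For 50 mg/kg against vehicle they gave 12, 2888, 67 and 180 to 1175, with 207 under the macrophage covariate. For 25 mg/kg against vehicle the first pair gave 1 each and 1 library less gave 0.

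Same-numbered libraries correlated at -0.08 to 0.42 in their deviations and 1 of 4 correlated best with its own number, so the numbers were not taken to pair samples; with the replicate number as a block 204 genes differed, 155 of them shared.

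Of 39 named genes called, the calls of Ankrd37, Prss35, Sox15 and Wfdc12 passed in all 22 alternatives. Signs turned in 11 named genes, none of them called. With the macrophage covariate Csf3r was at -0.073, Cyb5r1 -0.004, Eno3 0.103, Lig1 0.054, Lpl -0.121, Ryr1 0.026, S100a4 -0.124 and Tpsb2 -0.399. With library weights Aldh18a1 was at -0.028 and Hba-a1 at 0.013, and with the erythroid covariate Hba-a1 was at 0.036. Over the fits without 1 library Cyb5r1 ran from -0.007 to 0.17, Fgfbp1 from -0.085 to 0.49, Ryr1 from -0.499 to 0.105 and Tpsb2 from -0.072 to 0.304. Sequencing depth is unknown, so what it limits could not be given.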

Other observations

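Genes of basement membrane and collagen processing were among those lower at 50 mg/kg. They were picked after their values were seen. Plod1, a lysyl hydroxylase that modifies collagen chains, had the smallest adjusted p of all genes. It had 30.4, 28.6, 29.0 and 28.4 TPM in replicates 1 to 4 at 50 mg/kg, against 46.4, 46.9, 48.8 and 44.5 TPM at 25 mg/kg. Each dose was tightly grouped, and the difference was -0.66 ± 0.07 (SE; adjusted p = 2.77e-05 from limma). On day 4 Plod1 had also fallen, with a difference of -0.37 (adjusted p = 0.00209). Pxdn, the peroxidase that crosslinks type IV collagen, averaged 31.4 ± 2.45 TPM at 50 mg/kg and 48.0 ± 8.40 TPM at 25 mg/kg (SD, n = 4 each; adjusted p = 0.0153 from limma). Lama1, a laminin chain, averaged 33.5 ± 3.18 TPM at 50 mg/kg and 45.9 ± 6.81 TPM at 25 mg/kg with overlapping libraries (adjusted p = 0.0485 from limma).

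The glycogen synthase gene Gys1 and the phosphoglucomutase gene Pgm2 also fell. Both genes and Cry2, given below, were likewise picked after their values were seen. Gys1 averaged 20.9 ± 1.70 TPM at 50 mg/kg and 29.6 ± 2.17 TPM at 25 mg/kg, a difference of -0.48 (adjusted p = 0.00984). Pgm2 averaged 23.3 ± 1.12 TPM at 50 mg/kg and 31.1 ± 1.74 TPM at 25 mg/kg, a difference of -0.40 (adjusted p = 0.0305). Cry2, a repressor of the circadian clock, had 5.75, 5.17, 5.75 and 6.41 TPM in replicates 1 to 4 at 50 mg/kg, against 9.27, 8.82, 10.03 and 8.84 TPM at 25 mg/kg. Its difference was -0.60 (adjusted p = 0.000325) on day 8 and 0.06 (adjusted p = 0.766) on day 4, and the change between the days passed.

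Of 385 genes tested whose symbols start with Zfp, Zscan or Zbtb and a number, 11 fell (2.86%) and none rose, against 0.852% and 0.229% of all genes. Of these genes, 77.4% had values below 0, with a median of -0.10, and their day 4 median was 0.01. The median SD over genes on the log2(TPM + 1) scale on day 8 was 0.1998 in vehicle, 0.1396 at 25 mg/kg and 0.1798 at 50 mg/kg.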
